A study of Mus musculus with 6 samples.

Results

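The genes described here encode the receptors for 2 signalling lipids, lysophosphatidic acid (LPA) and sphingosine 1-phosphate (S1P), in outer hair cells of Insm1-KO and Insm1-Het mice. Members were the rows whose symbol was Lpar1, Lpar2, Lpar3, Lpar4, Lpar6, S1pr1, S1pr2, S1pr3, S1pr4 or S1pr5, which made 10 of the 23337 genes in each deposited table. The family was chosen by the counts of Lpar3 in this contrast, which were above 0 in Insm1-KO libraries and 0 in every Insm1-Het library. The levels of Lpar3 in the 2 genotypes are therefore given as a description and carry no test.

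Outer hair cells are the electromotile sensory cells of the cochlea, and Insm1 encodes a zinc-finger transcription factor of newly formed outer hair cells. RNA was sequenced from the organ of Corti of Insm1-KO mice (3 libraries) and Insm1-Het mice (3 libraries) at E18.5. In both genotypes the cells were sorted for fluorescence from an Insm1-GFP-Cre allele, so the Insm1-Het cells carry that allele too and are not wild type. The labels do not give the second allele, the number of mice per library or whether libraries came from separate animals, so the spread behind each p-value is that between these libraries and may be technical.

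LPA and S1P are lysophospholipids that act outside the cell on G-protein-coupled receptors. LPA is made in extracellular fluid, largely by the secreted enzyme autotaxin (Enpp2). S1P is made inside cells by sphingosine kinases and is exported by transporters such as Spns2. Lpar1, Lpar2, Lpar3 and the S1P receptors belong to the Edg family, whereas Lpar4 and Lpar6 are related to the purinergic receptors. Through several classes of G proteins these receptors are known to steer cell shape, migration and survival. In the mouse inner ear, loss of S1pr2 or of Spns2 is known to cause deafness with defects of the stria vascularis.

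The sequence upstream of Lpar3 is shown first, because Lpar3 is the receptor whose counts chose the family. That of Lpar2 is shown beside it, because Lpar2 was the receptor counted in every library at the highest level in Het cells. Both are the 250 bases before the RefSeq start site on GRCm38, plus strand, at chr3:146220711-146220960 for Lpar3 and chr8:69822315-69822564 for Lpar2. Capitals mark the 6-letter matches found by a search of both strands for CAGGGG, the middle of the sequence known to be bound by human INSM1, and CANNTG, the E-box bound by basic helix-loop-helix factors such as Atoh1. No match overlapped another.
Lpar3: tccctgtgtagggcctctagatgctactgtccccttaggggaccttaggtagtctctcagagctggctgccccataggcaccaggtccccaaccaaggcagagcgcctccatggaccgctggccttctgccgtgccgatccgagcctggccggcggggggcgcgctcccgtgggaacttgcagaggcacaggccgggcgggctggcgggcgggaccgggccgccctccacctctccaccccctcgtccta
Lpar2: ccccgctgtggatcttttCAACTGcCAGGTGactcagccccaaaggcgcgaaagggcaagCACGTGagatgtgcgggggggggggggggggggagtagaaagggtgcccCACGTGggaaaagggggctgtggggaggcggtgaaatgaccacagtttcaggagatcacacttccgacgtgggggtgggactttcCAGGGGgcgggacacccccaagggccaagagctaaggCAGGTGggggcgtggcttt
The Lpar3 window held 0 matches of either motif. The Lpar2 window held 1 CAGGGG, beginning 56 bases before the start site, and 5 E-boxes. GENCODE M21 starts Lpar2 at 69822429, inside this window. By that annotation the CAGGGG and the E-box nearest the RefSeq start site lie within the gene. Over the 32851 RefSeq promoter windows of the same length, 21.2% held CAGGGG and 66.2% held CANNTG. Both windows were rich in G and C, at 69.6% for Lpar3 and 64.4% for Lpar2, and held 17 and 11 CpG dinucleotides against a median of 6 over all windows. These matches describe letters only, and no binding was measured.

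The 3 KO libraries held 7705177 to 9748629 counts and the 3 Het libraries 10721902 to 12427039. CPM values are the deposited counts scaled to a common library total by TMM. Insm1 itself stood at 78.7, 60.3 and 18.7 CPM in KO replicates 1, 2 and 3, against 109.3, 116.2 and 69.2 CPM in Het replicates 1, 2 and 3, and the groups overlapped. By edgeR's quasi-likelihood test its log2 fold change of -0.90 (95% interval -1.97 to 0.17) missed the threshold after Benjamini-Hochberg adjustment (adjusted p = 0.938), so the labels are checked by it only in part. All 10 general hair cell markers were counted in every library, and their summed level was 10247 to 12129 CPM in KO and 10297 to 10753 CPM in Het libraries. Myo6 made up 42.7% to 50.6% of these sums. Of the 10, KO libraries lay wholly above Het libraries in Atoh1 and Barhl1 and wholly below in Gfi1 and Lhx3. Over all tested genes the shares were 5.08% wholly above and 6.1% wholly below. The summed level of 8 outer hair cell markers, Insm1 among them, was 673.9 to 732.5 CPM in KO and 763.5 to 887.0 CPM in Het libraries, without overlap. Without Insm1 the other 7 summed to 595.2 to 710.8 CPM in KO and 647.2 to 777.7 CPM in Het libraries, which overlapped. Of the 8, KO libraries lay wholly above Het libraries in Ocm and wholly below in Fam40b, against the same 5.08% and 6.1% of all tested genes. Ocm was low, at 1.6, 2.87 and 3.67 CPM in KO replicates 1, 2 and 3. Tectb led a list of 12 supporting cell markers that summed to 2194 to 3014 CPM in KO and 2008 to 2629 CPM in Het libraries, so transcripts on this list were present as well. Of the 12, KO libraries lay wholly above Het libraries in Lfng and S100a1 and wholly below in Gjb2.

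Lpar3, an LPA receptor that couples to inhibitory and phospholipase-activating G proteins, was counted in all KO libraries and in none of the Het libraries. It had 135, 8 and 164 counts in KO replicates 1, 2 and 3, against 0 counts in each Het library. KO replicates 1 and 3 carried nearly all of this signal and KO replicate 2 held 2.61% of the KO counts. On the CPM scale these levels were 14.4, 1.04 and 18.3 in KO, a mean of 11.2 ± 9.03 (SD, n = 3), although the Het libraries were each sequenced more deeply. Set against a floor of 3 counts over the Het group, or 0.0842 CPM, the KO mean was 133.4-fold this floor and KO replicate 2 alone 12.4-fold. These ratios restate the counts that chose the family and put no bound on the difference between genotypes. The floor reflects counting error alone, because PCR copies without molecular tags are not separate molecules. On GRCm38 the gene spans chromosome 3 from 146220963 to 146286186, plus strand, in 3 exons, and shares no exon with another annotated gene.

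Such an all-or-none pattern was rare towards KO and less rare the other way. The family was chosen by this pattern in Lpar3, so the place and rank of Lpar3 below restate that choice and test nothing. Of the 23337 genes, 6 (0.0257%) had 0 counts in every Het library and counts in every KO library, and Lpar3 had the most KO counts among them. Next came E130018N17Rik with 26, 65 and 34 counts in KO replicates 1, 2 and 3, and Ocm, the calcium buffer oncomodulin of outer hair cells, with 15, 22 and 33. F630043A04Rik had 24 KO counts in all and LOC626693 had 8. The last of the 6, the protease gene Plau, had 4 KO counts. In the opposite direction 88 genes (0.377%) had 0 counts in every KO library and counts in every Het library, and 4 of them had at least as many Het counts as Lpar3 had KO counts. The 2 counts describe these libraries, whose depth differs between the genotypes. Swings between libraries were also common in general, since 671 of the 11714 genes tested (5.73%) were at 0 in 1 or more libraries and at 100 or more counts in another.

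**Figure D1:**
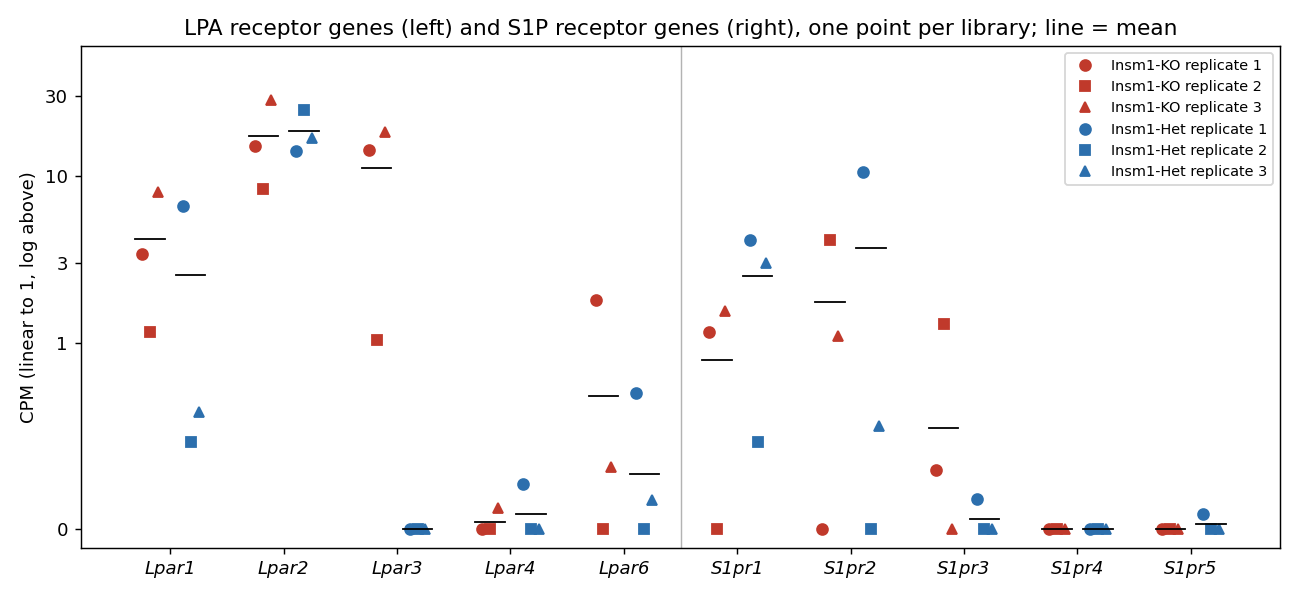
Level of each receptor gene in CPM (linear up to 1, logarithmic above) in the 3 Insm1-KO and the 3 Insm1-Het libraries, with a point per library and a line at each mean. Lpar3 lies between 1.04 and 18.3 CPM in the KO libraries and at 0 in every Het library, Lpar2 is above 8 CPM in all libraries, and the other genes spread over overlapping ranges or stay near 0.

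Lpar2, an LPA receptor that couples to several G protein classes, was the most evenly detected member and did not differ detectably between genotypes. It had 141, 64 and 257 counts in KO replicates 1, 2 and 3, against 173, 266 and 214 counts in Het replicates 1, 2 and 3. The lowest and the highest level, 8.35 and 28.6 CPM, were both in KO libraries, and the Het libraries lay between them. Its mean was 17.3 ± 10.3 CPM in KO and 18.6 ± 5.61 CPM in Het libraries (SD, n = 3). The 95% interval of its log2 fold change (-0.10) reached from -1.75 to 1.54. The sign turned without Het replicate 2 (0.16) and without KO replicate 2 (0.24). The interval is wide enough to hold a sizeable change in either direction.

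Lpar1, the LPA receptor with the widest known expression, among others in fibroblasts and myelinating glia, scattered from library to library in both genotypes. It had 32, 9 and 72 counts in KO replicates 1, 2 and 3, against 81, 5 and 8 counts in Het replicates 1, 2 and 3. In CPM, Het replicate 1 at 6.60 lay between KO replicate 1 at 3.42 and KO replicate 3 at 8.01, so the groups overlapped. The mean was 4.20 ± 3.49 CPM in KO and 2.57 ± 3.49 CPM in Het libraries (SD, n = 3). Its log2 fold change of 0.71 had a 95% interval of -2.71 to 4.12. The value was 2.91 without Het replicate 1 and -0.15 without KO replicate 3.

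Lpar4 and Lpar6, the receptors related to purinergic receptors, were at the edge of detection. Lpar6 had 17, 0 and 3 counts in KO replicates 1, 2 and 3, against 9, 0 and 2 counts in Het replicates 1, 2 and 3. It lies within Rb1 on the opposite strand and shares 408 bases of exon with it, so without a known strand setting its few reads cannot be told apart from those of Rb1. Lpar4 had 1 count in KO and 3 counts in Het libraries, each in a single library.

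Among the S1P receptors, S1pr1 and S1pr2 passed the filter on low counts, and neither differed between genotypes by more than the spread between libraries. S1pr1, which couples to inhibitory G proteins and is best known from endothelium and lymphocytes, had 11, 0 and 14 counts in KO replicates 1, 2 and 3, against 51, 5 and 38 counts in Het replicates 1, 2 and 3. Het replicates 1 and 3 were above every KO library, and Het replicate 2 was below 2 of them. The means were 0.911 ± 0.812 CPM in KO and 2.54 ± 1.89 CPM in Het libraries (SD, n = 3), and the log2 fold change of -1.46 had a 95% interval of -5.49 to 2.56. Leaving out 1 library kept this fold change below 0, between -2.07 and -0.88.

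S1pr2, the S1P receptor whose loss deafens mice, had 0, 32 and 10 counts in KO replicates 1, 2 and 3, against 130, 0 and 7 counts in Het replicates 1, 2 and 3. Each genotype thus held a library at 0, and a single Het library carried 130 of the 137 Het counts. Its log2 fold change of -1.08 had a 95% interval of -5.54 to 3.39, and leaving out Het replicate 1 gave 2.59. No direction can be read from these values.

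S1pr3, S1pr4 and S1pr5 were barely counted or not counted. S1pr3, known from mesenchymal and smooth muscle cells, had 3, 10 and 0 counts in KO replicates 1, 2 and 3, against 2, 0 and 0 counts in Het replicates 1, 2 and 3. S1pr5, known from oligodendrocytes and natural killer cells, had 0 counts in KO and 1 count in Het libraries. S1pr4, a receptor of blood cells, had 0 counts in every library. S1pr3 and S1pr5 share 45 and 51 bases of exon with annotated genes on the opposite strand that are not listed as protein-coding. In bulk libraries fewer cells of a type and less RNA per cell cannot be told apart, for these genes and for all others here.

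**Figure D2:**
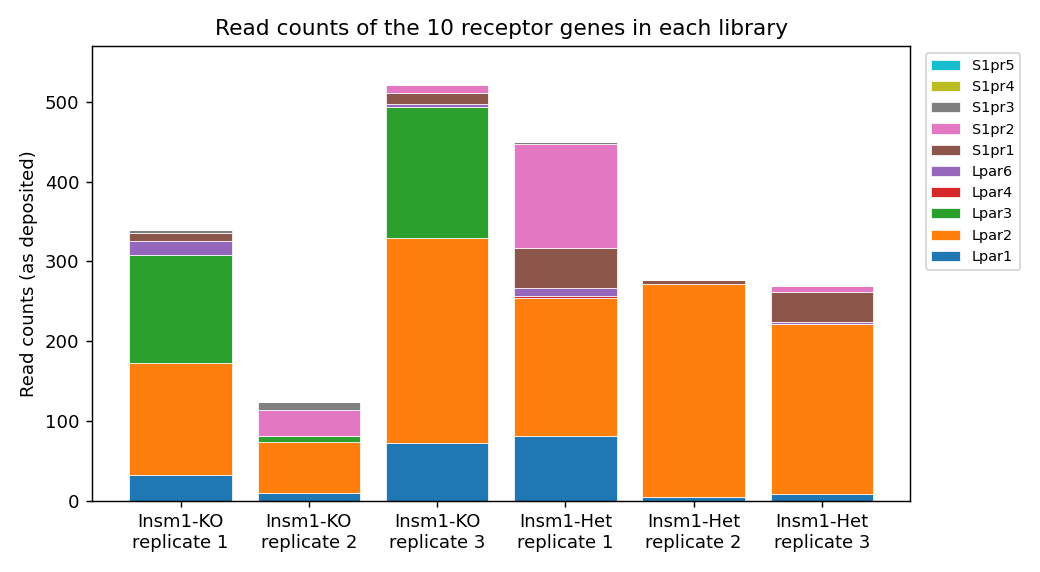
Deposited read counts of the 10 receptor genes, stacked, in each Insm1-KO and Insm1-Het library. Lpar2 (orange) is present in all 6 libraries, Lpar3 (green) in the 3 KO libraries with 135, 8 and 164 counts, and S1pr2 (pink) mainly in Het replicate 1 with 130 counts.

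Of the 10 receptor genes, 5 passed the filter. The 5 below it (Lpar4, Lpar6, S1pr3, S1pr4 and S1pr5) held at most 17 counts in any library and 51 in all. Over the whole table, 0 of 11714 tested genes (0%) passed edgeR's quasi-likelihood test at an adjusted p under 0.05, and 626 (5.34%) had an unadjusted p under 0.05. With DESeq2 26 genes (0.222%) passed, with limma-voom 0, and with no filter 67 of 15648 (0.428%). Among the 4 tested receptors other than Lpar3, 0 passed and 0 had an unadjusted p under 0.05, with adjusted p values from 0.987 to 0.996 by edgeR's test with Benjamini-Hochberg adjustment. Their median log2 fold change was -0.59, against 0.02 over all tested genes. KO libraries lay wholly above Het libraries in 5.08% of tested genes and wholly below in 6.1%, and the ranges of these 4 receptors overlapped.

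**Figure D3:**
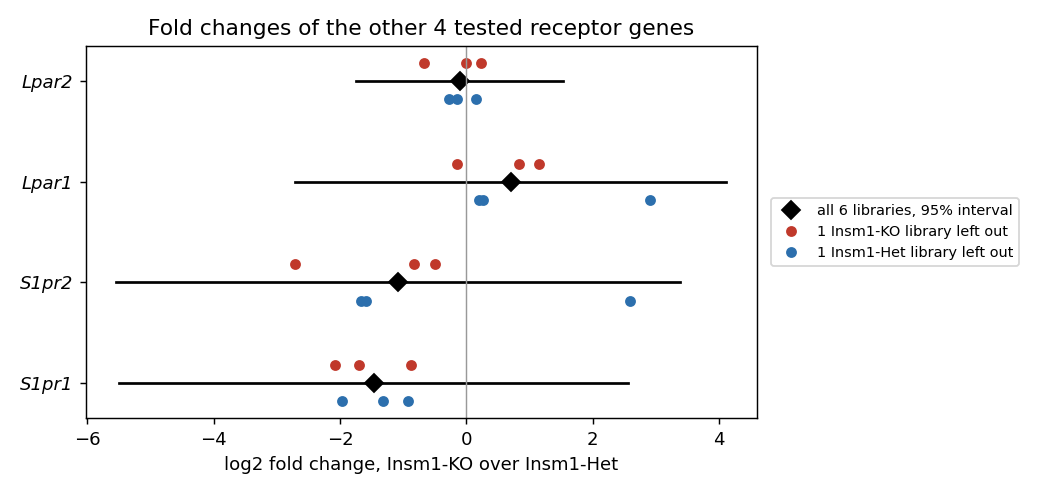
Log2 fold change, Insm1-KO over Insm1-Het, of the 4 tested receptor genes other than Lpar3, with the 95% interval (line) and the values with 1 library left out (red, KO library; blue, Het library). All 4 intervals span 0, and the value of S1pr2 runs from -2.71 to 2.59 when 1 library is left out.

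The make-up of receptor transcripts varied between libraries of 1 genotype. All 10 genes together had 339, 123 and 521 counts in KO replicates 1, 2 and 3, against 450, 276 and 269 counts in Het replicates 1, 2 and 3. Lpar3 made up 39.8%, 6.5% and 31.5% of these counts in KO libraries and 0% in Het libraries, which restates the counts that chose the family. The share of Lpar2 was 41.6%, 52.0% and 49.3% in KO replicates 1, 2 and 3, against 38.4%, 96.4% and 79.6% in Het replicates 1, 2 and 3, and overlapped. Without Lpar3 the other 9 genes summed to 204, 115 and 357 counts in KO replicates 1, 2 and 3, against 450, 276 and 269 counts in Het replicates 1, 2 and 3. Scaled to CPM, this sum was lowest in KO replicate 2 and highest in KO replicate 3 at 39.7 CPM, and the groups overlapped. KO replicate 2 was also the shallowest library and the KO library with the fewest Lpar3 counts. From 5 to 7 receptor genes were counted per KO library and from 3 to 8 per Het library, with the fewest in Het replicate 2.

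Levels of different genes were compared per kilobase of annotated exon. In KO libraries Lpar3 ranked first at 4.56 ± 3.67 CPM per kilobase, followed by Lpar2 at 2.97 ± 1.77 and then Lpar1 at 0.979 ± 0.813 (SD, n = 3), and every neighbouring pair in the order overlapped. S1pr1, S1pr2, Lpar6 and S1pr3 followed between 0.299 and 0.121 CPM per kilobase. In Het libraries Lpar2 ranked first at 3.19 ± 0.962 CPM per kilobase and was above S1pr1, the second at 0.834 ± 0.619, without overlap. Lpar1 at 0.598 and S1pr2 at 0.466 came next, and all later neighbours overlapped. The order of Lpar3 and Lpar2 in KO depended on the length used. With the same CPM divided by kilobases of coding sequence, Lpar2 stood at 16.6 and Lpar3 at 10.6. The CPM still held reads outside the coding sequence, so these values do not measure its coverage. Lpar2 has 5837 bases of exon against 1044 coding, and Lpar3 2464 against 1062. Lpar2 lay above 63.2% of genes in KO and 64.0% in Het libraries in CPM per kilobase, and Lpar3 above 68.2% in KO, out of 20953 genes with an annotated length.

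Over the 6 libraries the tested genes most like Lpar3, by Pearson's r of log2 CPM, were Lsm14b (0.993), Rbm39 (0.992), Xrcc3 (0.985), 4933407H18Rik (0.985) and Ccdc102a (0.98). These values describe 6 libraries that differ in depth and genotype. The genes were picked as the highest among 11714 tested genes, so their likeness to Lpar3 library by library follows from that choice. Xrcc3 had 187, 8 and 274 counts in KO replicates 1, 2 and 3, against 4, 0 and 0 counts in Het replicates 1, 2 and 3, close to the counts of Lpar3 library by library. Rbm39, an RNA-binding splicing factor, was far more abundant, at 327.5, 262.8 and 362.1 CPM in KO replicates 1, 2 and 3, against 210.7, 221.1 and 218.8 CPM in Het replicates 1, 2 and 3. The genes most like Lpar2, picked in the same way, were Thap2 (0.997), Pgrmc2 (0.993), Fam53b (0.989), Pkd2 (0.988) and Ndufc1 (0.988). Pkd2, the cation channel polycystin 2, had 157, 17 and 954 counts in KO libraries, against 170, 487 and 224 counts in Het libraries, with the same low KO replicate 2 and high KO replicate 3 as Lpar2.

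The genes beside Lpar3 on chromosome 3 were measured in the same libraries, a comparison chosen after the values were seen. Within 250000 bases of Lpar3, 9 protein-coding genes were listed and 8 passed the filter, of which 0 passed the test. None of the 9 had counts in every KO library and 0 in every Het library, a pattern that 0.0257% of all genes had. Few genes of any kind show it, so its absence here says little about the neighbours. Mcoln2, the nearest gene and an ion channel of endosomes, had 0, 0 and 10 counts in KO replicates 1, 2 and 3, against 0 counts in every Het library. Mcoln3, a channel of hair cells whose dominant mutations deafen mice, had 57.7, 125.1 and 75.2 CPM in KO replicates 1, 2 and 3, against 131.6, 147.6 and 108.4 CPM in Het replicates 1, 2 and 3. The groups overlapped through KO replicate 2, and the log2 fold change of Mcoln3 was -0.59 (adjusted p = 0.938 by edgeR's test with Benjamini-Hochberg adjustment).

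**Figure D4:**
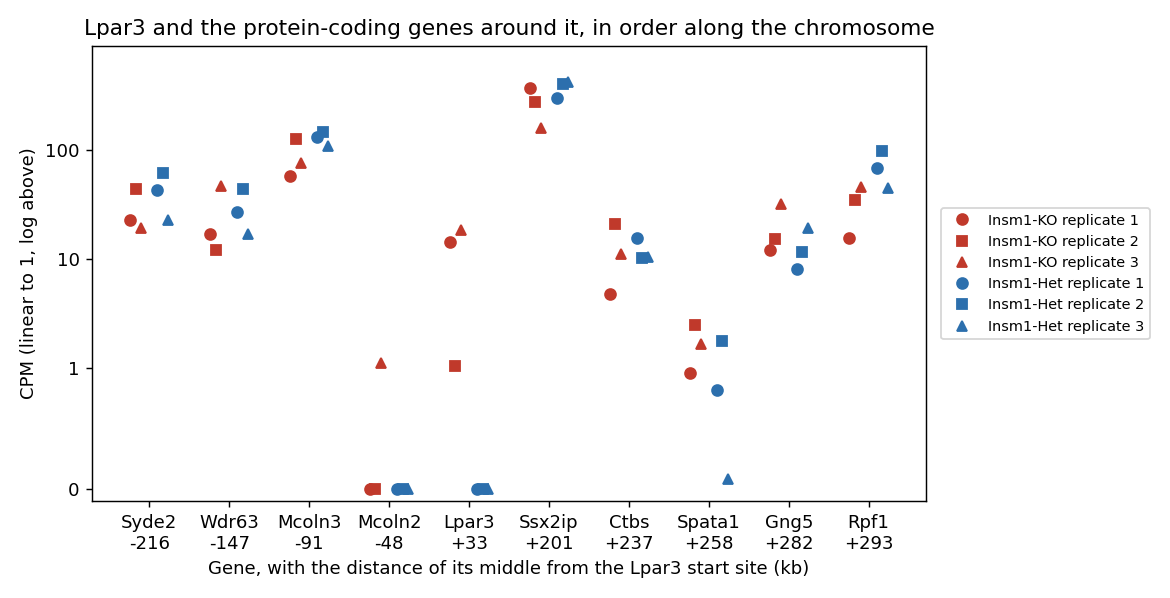
Level in CPM (linear up to 1, logarithmic above) of Lpar3 and of the 9 protein-coding genes around it, in the 3 Insm1-KO and 3 Insm1-Het libraries, ordered by their distance from the Lpar3 start site in kilobases. Lpar3 is at 0 in every Het library and above 1 CPM in every KO library. No neighbour is at 0 in every Het library and counted in every KO library, as are 0.0257% of all genes.

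Markers of other cell types that use these receptors ranged widely in level, with the neuronal list highest. Single genes made up most of several lists. Of 9 endothelial markers 1 was counted in every library, and the list summed to 17.1, 8.48 and 34.1 CPM in KO replicates 1, 2 and 3, against 7.74, 14.7 and 39.7 CPM in Het replicates 1, 2 and 3. These sums overlapped, with the highest in Het replicate 3. Egfl7 was the gene counted throughout, and the other 8 summed to 0 in KO replicate 2. Of 8 immune markers 1 was counted in every library and Csf1r and Aif1 were at 0 throughout; the list summed to 39.0 to 136.0 CPM in KO and 86.2 to 167.9 CPM in Het libraries, of which Laptm5 made up 71.8% to 100.0%. The 8 glial markers summed to 164.9 to 174.9 CPM in KO and 114.4 to 160.6 CPM in Het libraries, with Foxd3 at 0 throughout, and did not overlap. Cnp made up 65.4% to 88.2% of them, and without it the other 7 summed to 19.4 to 60.5 CPM in KO and 18.9 to 31.0 CPM in Het libraries, which overlapped. The 9 mesenchymal markers summed to 224.6 to 334.9 CPM in KO and 238.4 to 431.5 CPM in Het libraries, with Twist1 at 0 throughout. Pdgfra made up 78.0% to 99.8% of these sums, and the other 8 summed to 0.652 to 49.3 CPM in KO and 13.1 to 82.4 CPM in Het libraries. The 11 neuronal markers summed to 1021 to 1671 CPM in KO and 1032 to 1229 CPM in Het libraries, with Nefm at 40.8% to 58.6% and Nefl the next gene. In every library this was above the sum of the 8 outer hair cell markers. Of the 11, 6 were at 0 in 1 or more libraries, among them Tubb3 and Neurod1, at no more than 3.39 and 1.98 CPM. KO libraries lay wholly above Het libraries in Eya2 and wholly below in 0 of the 11. The part of any of these cells in the receptor counts was not tested.

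The 7 inner hair cell markers summed to 663.9, 989.7 and 1063 CPM in KO replicates 1, 2 and 3, against 725.2, 525.5 and 532.1 CPM in Het replicates 1, 2 and 3, which overlapped. The overlap came from Nhlh1, at 246.4 to 366.6 CPM in KO and 303.6 to 486.0 CPM in Het libraries. Without Nhlh1 the other 6 reached 417.5, 623.1 and 714.1 CPM in KO replicates 1, 2 and 3, against 239.2, 191.1 and 228.5 CPM in Het replicates 1, 2 and 3. Every KO library was then above every Het library. This sum was formed after the values were seen, by leaving out the gene that made the overlap. Rprm and Brip1 made up most of it in KO libraries, Brip1 at 76.8, 88.0 and 421.5 CPM in KO replicates 1, 2 and 3. KO libraries lay wholly above Het libraries in 3 of the 7 markers, against 5.08% of all tested genes, and wholly below in 0. These were Brip1, Tbx2 and Rprm. The list was drawn up with earlier results of these data known, so their count is a description only. Brip1 had 719, 675 and 3788 counts in KO replicates 1, 2 and 3, against 6, 0 and 75 counts in Het replicates 1, 2 and 3. Tbx2, which encodes a T-box transcription factor, had 38, 147 and 45 counts in KO replicates 1, 2 and 3, against 2, 1 and 8 counts in Het replicates 1, 2 and 3. Rprm had 323.5, 512.2 and 282.3 CPM in KO replicates 1, 2 and 3, against 232.9, 189.1 and 206.8 CPM in Het replicates 1, 2 and 3. Fgf8, a growth factor that inner hair cells secrete, had 87, 0 and 42 counts in KO replicates 1, 2 and 3, against 0 counts in every Het library. The libraries that were high thus differed from marker to marker, with Tbx2 and Rprm highest in KO replicate 2, Brip1 in KO replicate 3 and Fgf8 in KO replicate 1. Slc17a8 and 4930506M07Rik had at most 18 and 28 counts in KO libraries and 15 and 176 counts in Het libraries. The part of these transcripts in the counts of Lpar3 was not tested.

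Lists of genes that make, remove or answer to these lipids were counted in the same fit. Of 66 such genes in the files 42 were tested, 0 passed over all genes, and 1 (2.38%) had an unadjusted p under 0.05, against 5.34% of all tested genes. That gene was Gnao1, the abundant neuronal inhibitory G protein subunit, at 327.4, 233.3 and 280.7 CPM in KO replicates 1, 2 and 3, against 182.0, 91.0 and 164.5 CPM in Het replicates 1, 2 and 3, without overlap. Its log2 fold change of 0.94 had a 95% interval of 0.29 to 1.59 (adjusted p = 0.918 by edgeR's test with Benjamini-Hochberg adjustment).

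Of 11 genes of LPA synthesis and breakdown 6 were tested, 2 above and 4 below 0, with a median log2 fold change of -0.38. The most abundant was Plpp3, listed as Ppap2b, a membrane phosphatase that degrades LPA and S1P at the cell surface, at 134.3 ± 28.1 CPM in KO and 164.7 ± 37.5 CPM in Het libraries (SD, n = 3). The second was the phosphodiesterase Gde1 at 89.7 ± 56.4 CPM in KO and 78.2 ± 30.2 CPM in Het libraries. Enpp2, the autotaxin gene (picked once its values were known), was at 0 in all KO libraries against 19, 0 and 416 counts in Het replicates 1, 2 and 3. That signal was from Het replicate 3 almost alone, and the gene fell below the filter.

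Of 16 genes of S1P synthesis, breakdown and export 10 were tested, 8 above and 2 below 0, with a median of 0.35. Sgpp2 and Sgpp1, phosphatases that remove the phosphate of S1P inside the cell, were the most abundant. Sgpp2 stood at 320.7 ± 101.1 CPM in KO and 280.5 ± 27.8 CPM in Het libraries, and Sgpp1 at 200.9 ± 61.1 CPM in KO and 163.8 ± 15.3 CPM in Het libraries (SD, n = 3). The kinase Sphk2 had a mean of 67.3 CPM in KO and 42.8 CPM in Het libraries, and its log2 fold change had an interval of -0.36 to 1.67. The exporter Spns2 had 6, 0 and 0 counts in KO replicates 1, 2 and 3, against 25, 0 and 0 counts in Het replicates 1, 2 and 3. Sphk2 and Spns2 were named after their values were seen.

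All 14 genes of G proteins and their effectors were tested, 9 above and 5 below 0, with a median of 0.25. Gnai2, an inhibitory subunit, had a log2 fold change of 0.32 (95% interval -0.29 to 0.93). That of Rhoa, a GTPase that some of these receptors activate, was 0.17 (-0.35 to 0.69). Of 12 genes known to answer to YAP or SRF 10 were tested, 5 above and 5 below 0, with a median of -0.52. Egr1 stood at 679.5 ± 132.6 CPM in KO and 530.6 ± 163.9 CPM in Het libraries, and Srf at 138.2 ± 51.5 CPM in KO and 81.6 ± 21.7 CPM in Het libraries (SD, n = 3). Both are the most abundant of the list, and the 5 genes below 0 were less abundant. Cyr61, which encodes a matrix protein, had 8.86, 2.87 and 9.90 CPM in KO replicates 1, 2 and 3, against 16.1, 20.1 and 19.0 CPM in Het replicates 1, 2 and 3, without overlap, and its log2 fold change was -1.35 (95% interval -3.25 to 0.55). That of Ctgf was -1.60 (-4.47 to 1.26), and both were named after their values were seen. Of 10 related receptors 2 were tested, Cnr1 and Gpr6, both below 0 with intervals that span 0. Of the lipid phosphatase-related proteins 3 were in the files and 0 passed the filter.

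**Figure D5:**
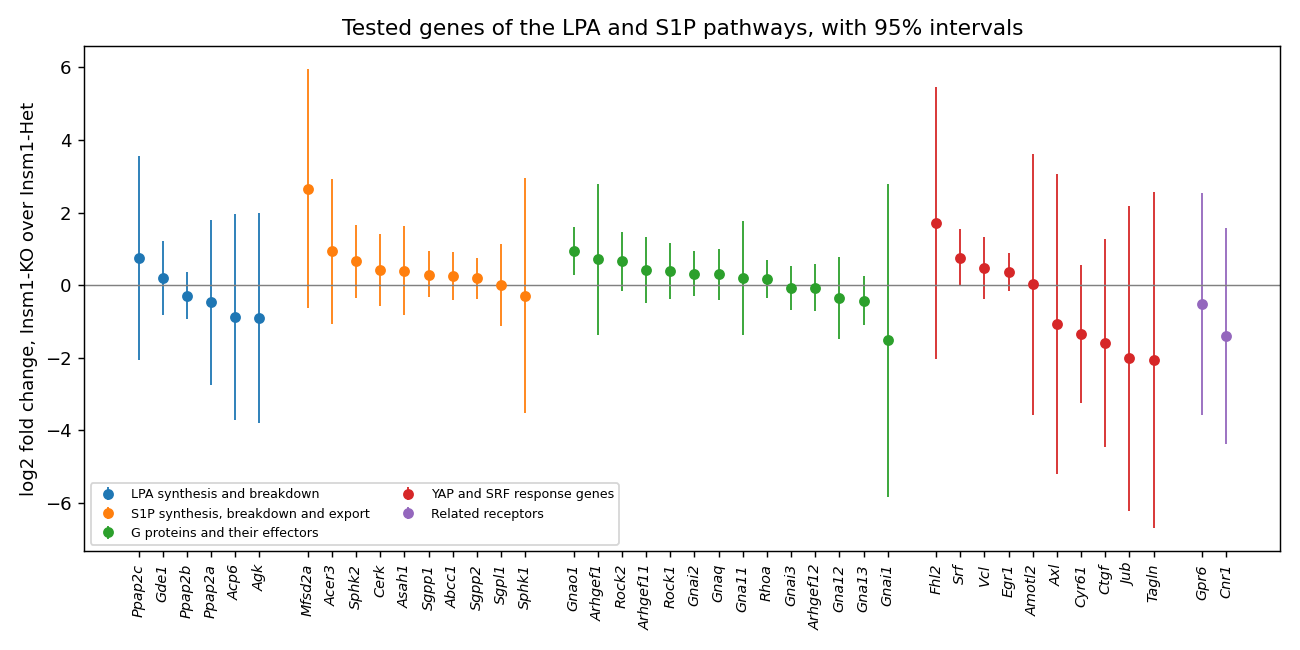
Log2 fold change, Insm1-KO over Insm1-Het, of the 42 tested genes of LPA and S1P metabolism, G proteins and their effectors, YAP and SRF response and related receptors, with 95% intervals. The interval of Gnao1 (0.29 to 1.59) lies above 0 before adjustment over all genes, and low genes such as Gnai1 and Tagln have the widest intervals.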

How the data were processed

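Each library has 1 table of raw read counts by gene symbol, as deposited by the authors. The tools named in the submitters' processing notes are Trimmomatic, STAR and HTSeq, with the build GRCm38 (mm10); versions, annotation and strand setting are not given in the sources. Everything else was computed from those counts. Genes were kept by filterByExpr (minimum count 10, minimum total 15) and scaled by TMM. Genotypes were compared across all genes with edgeR 4.0.16's quasi-likelihood F test (R 4.3.3), with genotype as its term, and called at 0.05 after Benjamini-Hochberg adjustment. Standard errors came from the log2 fold change and the square root of F, and 95% intervals also from the test's degrees of freedom. The labels name no batch. Correlations used log2 CPM with a prior count of 2. Lengths and positions came from GENCODE M21, promoters and older symbols from RefSeq (GRCm38). Promoters for both printed genes matched by symbol.

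Members and lists were chosen with earlier results of these data known. Named genes were the receptors, the called or the 2 most abundant tested genes of each list, and the 5 genes most like Lpar3 and Lpar2; others are marked. Older symbols of 3 lipid phosphatase-related genes were corrected after the data were seen. Marker sums without a single gene were also added then. Alternatives were DESeq2 1.42.0, limma-voom (limma 3.58.1), other scalings and filters, a robust fit, the newer edgeR form, a replicate block and leaving out each library.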

Additional observations from a re-analysis of the deposited data

How the results depend on the processing

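With the filter removed and with DESeq2, no receptor other than Lpar3 passed an adjusted p of 0.05. Calls of Lpar3 are set aside in every setting, because its counts led to its choice and cannot also test it. Without the filter 1 pathway gene passed, Enpp2 (adjusted p = 0.0266 by edgeR's test with Benjamini-Hochberg adjustment). Of its 435 counts, 416 came from Het replicate 3. Over all genes 0 passed in the reported fit, 67 with no filter, 26 with DESeq2, and 1 each with edgeR's newer fit, the replicate block, or both; with 1 library left out the counts of receptor, pathway and all genes were each 0. When 1 library was dropped, the Lpar1 log2 fold change ran from -0.15 (without KO replicate 3) to 2.91 (without Het replicate 1). That of Lpar2 ran from -0.66 (without KO replicate 3) to 0.24 (without KO replicate 2) and was 0.16 without Het replicate 2. That of S1pr2 ran from -2.71 (without KO replicate 2) to 2.59 (without Het replicate 1), and it turned to 0.83 with the replicate block; the cause of the last was not tested. S1pr1 kept its sign under all 16 alternatives that could be fitted. With Lpar3 set aside, no receptor passed in any of these alternatives. Insm1 ran from -1.32 to -0.49 with 1 library left out. Under the filter at 5 CPM in 3 libraries Lpar1, S1pr1 and S1pr2 gave no value. With the CPM of the whole gene divided by kilobases of coding sequence, Lpar2 was at 16.6 in KO and 17.9 in Het libraries. Lpar3 was then at 10.6 in KO libraries.

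The labels give same-numbered libraries only a number in common. The correlations of their deviations from the group means were 0.0101, 0.0073 and 0.0144. KO replicate 2 correlated more with Het replicate 1 (0.0227). Such values over all tested genes cannot show whether libraries shared a batch that touched fewer genes, and this was not tested. At this depth a difference between genotypes was not detectable for the 5 receptors below the filter.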

Other observations

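Lpar5, an LPA receptor outside the set described above, had 3, 0 and 0 counts in KO replicates 1, 2 and 3, against 0 counts in every Het library.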
